A study of Mus musculus with 4 samples.

Results

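Clec7a, Itgax, Cst7, Gpnmb, Spp1, Lgals3, Cd9 and Igf1 are 8 genes widely used to mark disease-associated microglia, the state that the brain's resident phagocytes enter near plaques, tangles and dying neurons. They were chosen by symbol out of the 55403 genes in the count matrices, and all 8 were found. The choice was made with their microglial levels, their co-detection in single nuclei and their spread over cell classes already known in these libraries, so those values are given below as a description and without tests.

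The study used single-nucleus RNA sequencing, in which nuclei from frozen tissue are captured in droplets and each captured transcript molecule is counted once as a unique molecular identifier (UMI). Hippocampi were pooled within each genotype before nuclei were isolated, and libraries were made with the 10x Genomics 3′ v3.1 chemistry. The labels do not say how many animals entered a pool, or the age at which they were taken beyond the word aged in the series title. The question of the series is how raised SORLA, a sorting receptor encoded by Sorl1, changes the brain of mice with tau pathology.

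The WT group was 1 library labelled as wild type, from the same litters as the transgenic mice. The PS19 group was 2 libraries from mice that express human MAPT with the P301S mutation, in the 1N4R form of tau, from the mouse prion promoter Prnp. The TG_PS19 group was 1 library from PS19 mice crossed with a Rosa26 line in which a CMV/β-actin promoter drives SORLA, a promoter that is not specific to microglia. Both PS19 libraries carry the same genotype label and nothing says that they came from separate animals. Every adjusted p below rests only on the spread between these 2 libraries, taken mostly over all genes together. WT and TG_PS19 have 1 library each, so the spread within those groups was not measured.

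Microglia leave their resting state through receptors that sense lipids and debris, chiefly TREM2 with its adaptor TYROBP, and the disease-associated state is reached after homeostatic genes such as P2ry12 and Tmem119 fall and phagocytic, lysosomal and lipid-handling genes rise. Clec7a encodes dectin-1, a surface receptor for beta-glucans that signals through SYK. Itgax encodes the integrin CD11c, Cst7 the cathepsin inhibitor cystatin F, Gpnmb a glycoprotein of late endosomes and lysosomes, and Spp1 the secreted phosphoprotein osteopontin. Lgals3 encodes galectin-3, which binds damaged lysosomes, Cd9 is a tetraspanin that organises membrane proteins, and Igf1 is a secreted growth factor.

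The filters left 11458 nuclei of WT, 4467 and 4728 of the PS19 libraries and 8963 of TG_PS19, with 20064025 to 48670533 UMIs deposited per library and a median of 2643 to 3708.5 UMIs per barcode, and 100 barcode sequences occurred in more than 1 library. Microglia were 2 clusters in which all 12 of the 12 microglial markers were raised, cluster 7 led by Siglech and cluster 12 led by Ly86. WT had 589 such nuclei, PS19 260 and 284, and TG_PS19 411, at median depths of 1605, 2201, 2573.5 and 1643 UMIs. Most WT and TG_PS19 microglia were in cluster 7 and most PS19 microglia in cluster 12, although the 8 genes were left out when nuclei were clustered. The TG_PS19 library differed from the others in sex. Xist, the X-inactivation transcript, was found without Y-linked transcripts in 234 of its 411 microglia (56.9%). The same held for 11 of 589 in WT and 1 and 2 in the PS19 libraries. In TG_PS19, 79 microglia (19.2%) held Y-linked transcripts without Xist (Y-called), and the other 98 held both or neither.

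The windows from 250 bases before to 50 bases after the transcription start were read for all 8 genes from RefSeq on GRCm38.p6, since the 8 rise together in PS19 microglia. The pattern TGANTCA, a loose form of the AP-1 motif with any letter at N, was searched on both strands. It was found in 4 of the 8 genes, Itgax, Cst7, Gpnmb and Igf1, and in 7.81% of the 32851 windows of this length (8.97% of 27025 genes). The letter at N was G in Itgax, C in Gpnmb, T in Cst7 and A in Igf1. These 4 windows are printed 5′ to 3′ on the coding strand because they carry that match, which stands in capitals. The match begins 56 bases before the start in Itgax, 6 before in Cst7, 37 before in Igf1 and 8 after in Gpnmb.
Itgax, chr7:128129300-128129599, plus strand: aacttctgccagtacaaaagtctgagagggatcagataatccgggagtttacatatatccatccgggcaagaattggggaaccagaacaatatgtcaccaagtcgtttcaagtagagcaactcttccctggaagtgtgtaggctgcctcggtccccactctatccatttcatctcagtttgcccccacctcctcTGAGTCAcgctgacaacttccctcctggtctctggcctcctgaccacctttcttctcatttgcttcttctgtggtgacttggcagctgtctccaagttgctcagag
Cst7, chr2:150570165-150570464, plus strand: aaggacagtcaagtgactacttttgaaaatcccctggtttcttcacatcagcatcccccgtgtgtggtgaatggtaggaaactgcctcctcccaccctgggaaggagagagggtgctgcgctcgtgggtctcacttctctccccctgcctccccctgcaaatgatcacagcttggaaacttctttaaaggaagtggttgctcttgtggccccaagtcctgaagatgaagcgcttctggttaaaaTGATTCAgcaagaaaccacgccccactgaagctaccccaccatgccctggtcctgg
Gpnmb, chr6:49036268-49036567, plus strand: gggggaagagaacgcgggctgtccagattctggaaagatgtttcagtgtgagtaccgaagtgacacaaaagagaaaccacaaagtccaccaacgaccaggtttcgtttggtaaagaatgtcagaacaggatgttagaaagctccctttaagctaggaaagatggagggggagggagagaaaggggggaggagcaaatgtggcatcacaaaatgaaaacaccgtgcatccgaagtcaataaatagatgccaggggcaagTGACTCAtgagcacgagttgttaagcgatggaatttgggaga
Igf1, chr10:87860861-87861160, plus strand: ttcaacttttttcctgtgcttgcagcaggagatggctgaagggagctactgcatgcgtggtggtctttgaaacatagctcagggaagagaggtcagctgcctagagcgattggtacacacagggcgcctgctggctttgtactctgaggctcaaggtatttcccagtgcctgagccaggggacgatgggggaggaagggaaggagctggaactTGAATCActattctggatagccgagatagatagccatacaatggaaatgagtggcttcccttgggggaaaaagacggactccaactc

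The E-box CACGTG, the motif of the lysosomal regulators TFEB and MITF, was in none of the 8 genes' windows and in 7.15% of all windows. GAGGAA, the core of the site of the myeloid factor PU.1, was in 3 genes (Clec7a, Spp1 and Igf1) and in 28.3% of all windows. A match says that the letters are present and nothing of binding.

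All 8 genes were higher in the microglia of both PS19 libraries than in those of WT and TG_PS19. Their summed level was 397 CPM (counts-per-million of the UMIs in microglia) in WT, 1255 and 981 in the 2 PS19 libraries and 393 in TG_PS19, or 413 in its 79 Y-called microglia. Cd9 supplied most of that sum in each library. All 8 passed edgeR's test in the comparison of PS19 with WT, where 9.19% of 10581 genes did, and in that of TG_PS19 with PS19, where 9.31% did. DESeq2 called 1 of the 8 in each comparison. The levels chose the genes, so nothing is read from those counts or from the separate intervals. The share of all genes with separate intervals is not given here. Intervals below are exact 95% Poisson intervals and cover counting error only.

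Clec7a, the dectin-1 receptor, was read 4 times in WT microglia, 76 and 131 times in PS19 and 3 times in TG_PS19, or 4.01, 119, 165 and 4.13 CPM. PS19 thus stood 29.7-fold (11.1 to 112) and 41.2-fold (15.7 to 153) above WT. It was present in 19.6% and 20.1% of PS19 microglia, 0.679% of WT and 0.730% of TG_PS19 microglia. In dentate granule neurons, which should lack it and were deeper (medians of 6498.5 to 10121 UMIs), a single UMI was found over the 4 libraries. Itgax, the CD11c integrin, had 5, 33, 36 and 2 UMIs in the same order, or 5.01, 51.7, 45.4 and 2.76 CPM. The 2 PS19 libraries lay 10.3-fold (4.00 to 33.8) and 9.05-fold above WT and held it in 10.4% and 8.80% of microglia, while granule neurons again showed 1 UMI in all.

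The genes of the endolysosomal system were nearly or wholly undetected in WT and TG_PS19 microglia. Cst7 had 2 UMIs in WT, 27 and 14 in PS19 and none in TG_PS19, or 2.01, 42.3, 17.7 and 0 CPM. The ratio to WT was 21.1 (5.30 to 183) and 8.80 (2.02 to 79.8). Lgals3 was similar, with 1, 19, 17 and 0 UMIs (1.00, 29.7, 21.4 and 0 CPM), a ratio of 29.7 (4.71 to 1232) and 21.4 (3.35 to 893). For a TG_PS19 gene at 0, a floor of 3 counts in that library, 4.13 CPM, makes PS19 at least 10.2-fold and 4.27-fold higher for Cst7, and at least 7.19-fold and 5.19-fold higher for Lgals3.

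Gpnmb was read 54 and 22 times in PS19 microglia and never in the 589 WT or 411 TG_PS19 microglia, which makes PS19 at least 28.1-fold and 9.22-fold higher than WT against a floor of 3 counts in WT, 3.01 CPM. Against the TG_PS19 floor of 4.13 CPM it was at least 20.4-fold and 6.71-fold higher. It was carried by few nuclei: 10 nuclei (3.85%) held all 54 UMIs and 5 nuclei (1.76%) all 22, and in each library 1 nucleus held 17. In dentate granule neurons of the same libraries 3.31% and 4.90% held a Gpnmb UMI. These neurons were deeper, with medians of 8581 and 10121 UMIs per nucleus against 2201 and 2573.5 in microglia. The shares are not at equal depth, so they do not set a background for the microglial shares. The 12 microglial markers were lower in those few nuclei, 6365 CPM against 15100 in Gpnmb-negative microglia of the first PS19 library and 8057 against 13642 in the second, and their mean doublet score was higher, 0.509 against 0.244 and 0.341 against 0.195. Whether a second cell contributed to the Gpnmb UMIs was not tested. Astrocyte markers in the same nuclei were 710 against 554 and 671 against 466 CPM.

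Of the secreted factors, Spp1 had 12 UMIs in WT microglia, 77 and 43 in PS19 and 10 in TG_PS19, or 12.0, 121, 54.2 and 13.8 CPM. PS19 was 10.0-fold (5.42 to 20.2) and 4.51-fold (2.33 to 9.39) above WT, and 1 nucleus of the first PS19 library held 19 of its 77 UMIs. Igf1 was read once in WT microglia, 24 and 21 times in PS19 and never in TG_PS19, or 1.00, 37.6, 26.5 and 0 CPM. Its ratio to WT was 37.5 (6.11 to 1541) and 26.4 (4.25 to 1092), the width of the intervals following from the single WT UMI.

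Cd9 behaved differently in size, not in direction. It was already present in 43.6% of WT and 45.7% of TG_PS19 microglia, at 372 CPM in both, and rose to 770 and 623 CPM and to 77.3% and 71.8% of nuclei in PS19. Those are 2.07-fold (1.81 to 2.38) and 1.67-fold (1.46 to 1.92) of the WT level. Cd9 was also found in 13.4% to 17.2% of dentate granule neurons. It was the only one of the 8 found in over 10% of granule neurons.

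**Figure D1:**
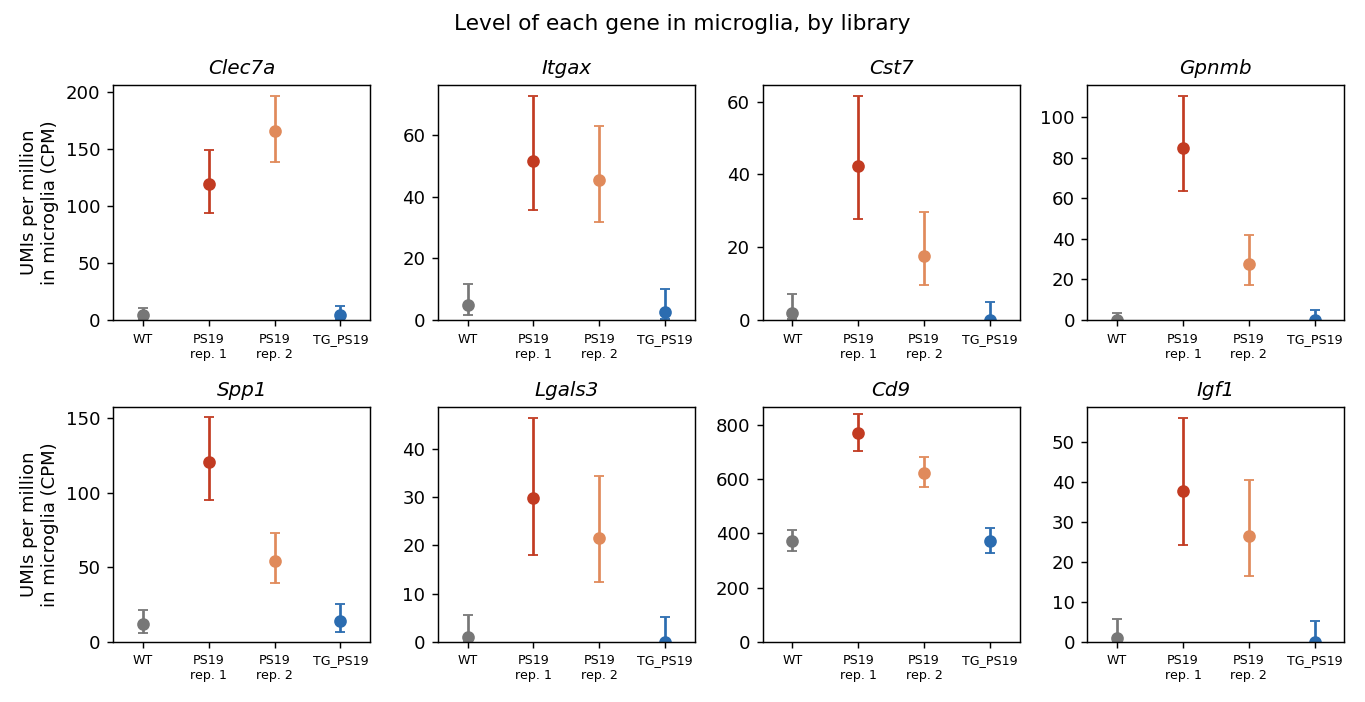
Level in microglia in CPM (vertical axis, linear, a scale of its own in each panel) for each of the 8 genes in the 4 libraries, with exact 95% Poisson intervals that cover counting error. Both PS19 libraries lie above WT and TG_PS19 in all 8 panels, and Cd9 alone has a high level in WT (372 CPM).

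The genes differed in their spread over cell classes. Clec7a and Itgax had 86.6% and 80.9% of all their UMIs in microglia, which are 4.59% to 6.01% of kept nuclei and 2.16% to 3.41% of UMIs. By level over all libraries, a small unnamed cluster led by Mrc1 ranked above microglia for both. Clec7a was 71.4 CPM there (8 UMIs) against 67.8 in microglia, and Itgax 44.6 (5 UMIs) against 24.1. Cst7 and Lgals3 were intermediate at 38.7% and 25.3%. The other 4 had most UMIs elsewhere: Spp1 had 14.9% in microglia and 50.5% in fibroblasts, Gpnmb 13.5% and 39.0% in astrocytes, Cd9 9.51% and 39.1% in oligodendrocytes, and Igf1 5.60% against 47.4% in inhibitory neurons and 31.8% in fibroblasts. These names are of clusters with raised markers of that class, and follow from clusters rebuilt here.

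Within one genotype the picture shifted with the microglial level. In the 2 PS19 libraries microglia held 85.4% and 91.6% of Clec7a UMIs, 69.2% and 38.9% of Cst7, 54.3% and 39.5% of Lgals3, 31.4% and 18.8% of Spp1, 31.0% and 11.3% of Gpnmb and 16.0% and 8.86% of Igf1. In WT the same shares were 44.4% (of 9 UMIs), 9.09%, 2.27%, 3.75%, 0% and 0.356%. In a WT or TG_PS19 hippocampus a UMI of Spp1, Gpnmb, Lgals3 or Igf1 was thus far more often from a cell other than a microglial one. Over all 8 genes the microglial share was 6.67% in WT, 16.9% and 15.5% in PS19 and 6.53% in TG_PS19.

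**Figure D2:**
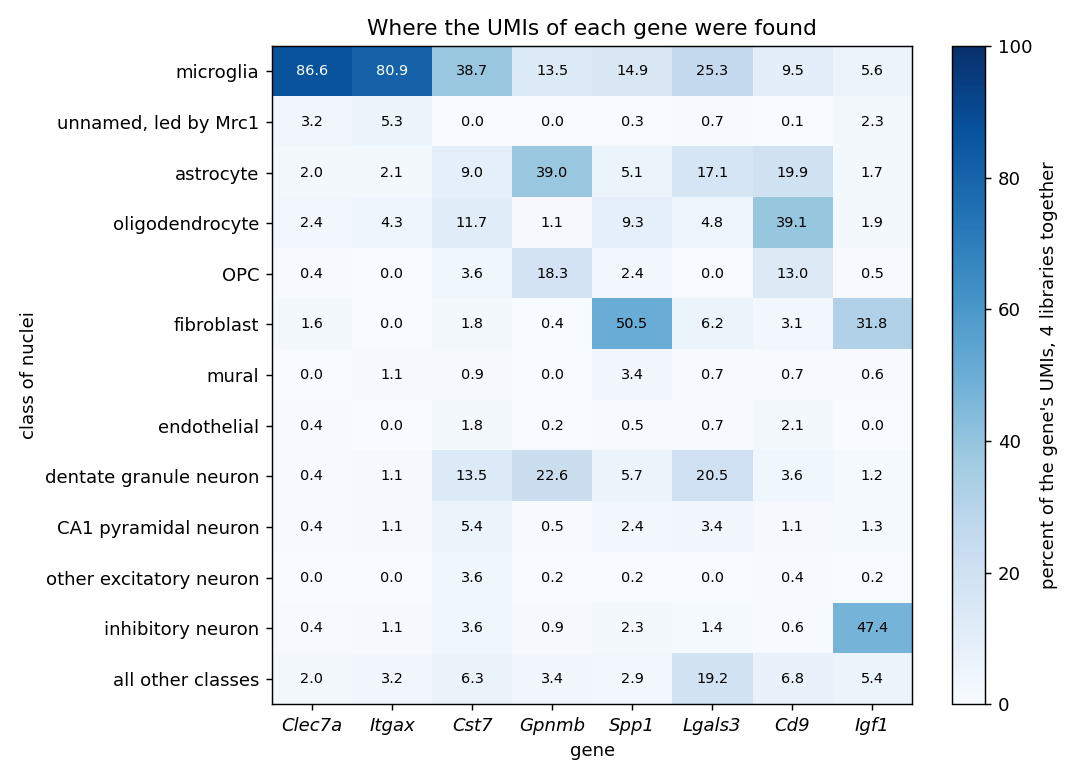
Percent of each gene's UMIs (colour and printed value, 4 libraries together) found in each class of nuclei; each column sums to 100. Clec7a and Itgax have most of their UMIs in the microglia row (86.6% and 80.9%), while Spp1, Gpnmb, Cd9 and Igf1 have their highest share in another row. Shares follow the size of a class as well as its level.

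In single microglia, 11 of 589 WT nuclei (1.87%) held UMIs of at least 2 of the 8 genes, against 89 of 260 (34.2%, exact binomial interval 28.5 to 40.3) and 82 of 284 (28.9%, 23.7 to 34.5) in PS19 and 4 of 411 (0.973%) in TG_PS19. At least 3 genes were held by 32 (12.3%) and 37 (13.03%) PS19 nuclei, and by 1 nucleus each in WT and TG_PS19. The most held by a single nucleus was 6 and 5 in PS19. None of the 79 Y-called TG_PS19 microglia held 2, a count that allows up to 3.80%. In cluster 12, 4 of 30 WT and 2 of 18 TG_PS19 nuclei held 2 or more, against 87 of 212 and 80 of 237 in PS19.

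Depth moved these shares. The share of nuclei with at least 2 genes was 20.7%, 37.9% and 44.2% over the lowest, middle and highest depth tertiles of the first PS19 library and 7.37%, 31.6% and 47.9% in the second. With every nucleus thinned to 1000 UMIs, and 31, 4, 1 and 16 shallower nuclei left out in the order WT, PS19, PS19, TG_PS19, the shares were 0.538%, 16.8%, 9.89% and 0.506%. The order of the genotypes was the same.

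**Figure D3:**
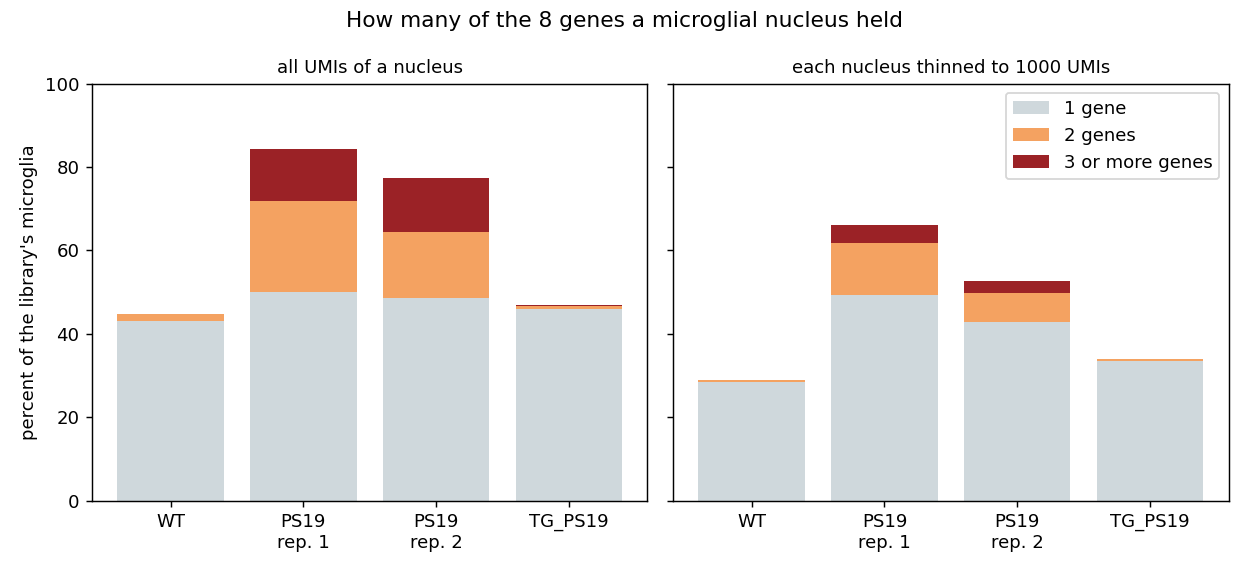
Percent of each library's microglia (vertical axis, stacked) that held UMIs of 1, 2 or at least 3 of the 8 genes, with all UMIs (left) and with each nucleus thinned to 1000 UMIs (right). The share with 2 or more is 34.2% and 28.9% in the PS19 libraries and under 2% in WT and TG_PS19 on the left.

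For all 8, independent detection at each gene's own share gives 104 and 92.7 PS19 nuclei with at least 2, more than the 89 and 82 seen, and 24.4 and 17.6 with at least 3, fewer than the 32 and 37 seen. Cd9 made up most of these pairs, so the other 7 genes were also taken alone, a choice made after these values were seen. At least 2 of the 7 were found in 35 (13.5%) and 41 (14.4%) PS19 microglia, 2 WT nuclei (0.340%) and 1 TG_PS19 nucleus (0.243%). If the 7 genes had fallen into nuclei independently at their own shares, 30.4 and 23.6 PS19 nuclei would hold at least 2, and 32.5 and 27.2 if independence held within depth tertiles. At least 3 were seen in 15 and 12 nuclei where independence gives 4.10 and 2.46. The 21 pairs were also summed, with a nucleus counted once for each pair it held. These sums were 94 against 39.6 in the first library, 2.37 times as many, and 71 against 28.9 in the second, 2.45 times. Within depth tertiles the ratios were 2.06 and 1.94. Co-detection was known when the genes were chosen, so the values in this paragraph are a description and no test.

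Pairs differed in how often they met. Gpnmb and Spp1 were found together in 7 and 3 PS19 nuclei, 6.07 and 7.1 times the independent number, and Gpnmb and Lgals3 in 3 and 2, at 6.50 and 10.3 times. Clec7a with Itgax met in 10 and 13 nuclei, 1.89 and 2.59 times the independent number. Cst7 and Itgax met in 0 and 4 nuclei, ratios of 0 and 3.50. Of the 21 pairs, 19 and 18 exceeded a ratio of 1, and 16 did so in both libraries. The 7 pairs with Cd9, which most PS19 microglia hold, stood at 1.01 to 1.29 and 0.835 to 1.29. Few nuclei stand behind each ratio (at most 13), and the nuclei of a library share its pool and its free RNA.

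PS19 microglia with at least 2 of the 8 genes were also compared with those with none in other genes. The lists of other genes were chosen with earlier results of these data known, so these values are a description. Of 30 other disease-associated genes on a list of the same state, 26 had enough UMIs, and 23 were higher in both libraries, with a median log2 ratio of 0.77 (pseudocount 50 CPM). Over all 7391 genes 2245 were higher in both and the median was 0.02. Apoe, the lipid carrier, was 2086 CPM in nuclei with none and 3482 in nuclei with 2 or more of the first library, and 1002 and 2598 of the second. The lysosomal protease Ctsb moved from 641 to 1146 and from 511 to 721 CPM. Trem2 and Tyrobp did not rise with them: Trem2 was 443 and 468 CPM in the first library and 349 and 336 in the second.

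Homeostatic genes went the other way, 19 of 21 lower in both libraries, with a median log2 ratio of -0.65. Over all 7391 genes 1889 were lower in both. The purinergic receptor P2ry12 was 1072 CPM in nuclei with none and 593 in nuclei with 2 or more of the first library, and 996 and 521 of the second. Siglech, a sialic acid receptor, was 967 against 327 and 873 against 462. Nuclei with 2 or more were deeper, with median UMIs of 2512 against 1936 and 3098.5 against 2227.5, and the part of depth in these ratios was not tested. Border macrophage markers summed to 198 and 133 CPM in those nuclei and 128 and 149 in nuclei with none. The part of border macrophages in these nuclei was not tested.

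**Figure D4:**
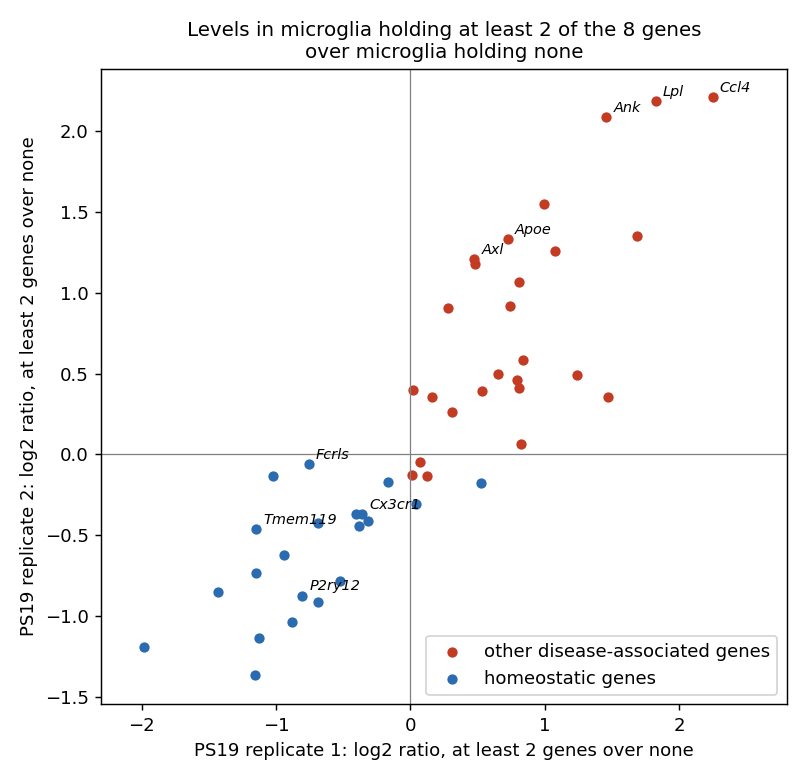
Each point is 1 gene: log2 ratio of its level in microglia holding at least 2 of the 8 genes over microglia holding none, in PS19 replicate 1 (horizontal) and replicate 2 (vertical). Disease-associated genes lie mostly at the upper right (23 of 26 above 0 in both) and homeostatic genes at the lower left (19 of 21 below 0 in both). Of all 7391 genes, 2245 were above 0 in both and 1889 below 0 in both.

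The 10 genes highest in nuclei with 2 or more of the 8 genes, by the mean log2 ratio over both libraries, were Alcam (2.36), Ccl4 (2.23), Xylt1 (2.01), Lpl (2.01), Myo1e (1.81), Fam20c (1.81), Cd74 (1.80), Ank (1.77), Arhgap15 (1.75) and Flt1 (1.65). Alcam, an adhesion molecule, stood at 11.7 CPM in nuclei with none and 383 with 2 or more in the first library, and at 19.4 and 211 in the second. A second measure of likeness was Pearson's r of CPM with the members' sum over 48 points, 12 classes in 4 libraries, and among 19881 genes it was highest for Nacc2 (0.928), Prkd3 (0.910), Nek7 (0.893) and Lrmda (0.891). That sum is mostly Cd9 (17100 of 20034 UMIs), points of a library share its depth, and r of each of the 8 with the other 7 was 0.0924 for Igf1 to 0.4999 for Clec7a.

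Between genotypes, in microglia, other genes of the disease-associated list moved with the 8. In PS19 against WT 18 of 28 tested rose and 0 fell by edgeR's quasi-likelihood test at an adjusted p of 0.05, where 4.74% of all genes were called higher. The median log2 fold change was 0.99 beside 0.01 over all genes, and DESeq2 called 7 of the 28. Lpl, the lipase that frees fatty acids from lipoproteins, was 6.11 normalised CPM in WT, 95 and 69.2 in PS19 and 5.94 in TG_PS19 (log2 fold change 3.70, SE 0.44, adjusted p = 1.96e-14). The scavenger receptor Colec12 was 54.0, 576, 574 and 148 (3.41, SE 0.22). The receptor tyrosine kinase Axl was 15.3, 141, 112 and 5.94 (3.02, SE 0.34), and the chemokines Ccl4 and Ccl3 rose by 3.03 (SE 0.32) and 2.999 (SE 0.44). Cybb, the catalytic subunit of the phagocyte oxidase, stood at 4.07, 39.6 and 44.9 and at 0 in TG_PS19.

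In TG_PS19 against PS19 18 of the 28 fell and 0 rose, with a median of -1.32 beside -0.01 over all genes, 4.62% of which were called lower, and DESeq2 called 10. With the Y-called TG_PS19 nuclei alone 15 passed. Both comparisons use the same 2 PS19 libraries. Ccl4 was 18.3 normalised CPM in WT, 157 and 146 in PS19 and 1.48, or 1 UMI, in TG_PS19 (-6.52, SE 0.58, adjusted p = 3.19e-26). Lyz2, encoding lysozyme, was 22.4, 168, 119 and 7.42 (-4.23, SE 0.43), Ccl3 fell by 4.41 (SE 0.61) and Axl fell by 4.36 (SE 0.46). Between TG_PS19 and WT, 2 of the 28 passed, Colec12 higher (1.46, SE 0.28, edgeR adjusted p = 2.03e-04) and Ccl4 lower (-3.49, SE 0.96, 0.0418), where 0.907% of all genes were called. DESeq2 called 0 of the 28 and 9 reached 0.05 before adjustment. Ccl4 had 1 UMI in TG_PS19.

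Of 21 homeostatic genes tested, 14 fell and 0 rose in PS19 against WT (median -0.68, 4.44% of genes called lower), and 18 rose and 0 fell in TG_PS19 against PS19 (median 0.70, 4.69% called higher). DESeq2 called 3 in each, and with suspected doublets kept edgeR called 5 and 4. With the Y-called TG_PS19 nuclei alone 9 passed in TG_PS19 against PS19. Fcrls was 457 normalised CPM in WT, 169 and 138 in PS19 and 368 in TG_PS19 (-1.58, SE 0.17), and Tmem119 was 292, 155, 120 and 226 (-1.10, SE 0.18). Cst3, the cystatin that is among the most abundant microglial transcripts, was 7566, 3932, 3001 and 8576. None of the 21 passed between TG_PS19 and WT by edgeR or DESeq2, and 4 had an unadjusted p under 0.05.

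Of 15 TREM2 and SYK signalling genes, edgeR called 1 higher in PS19 against WT, where 4.74% of all genes were called higher. A single call of 15 is near that share and is not read as a result about the list. It was Tyrobp, at 165, 268, 223 and 184 normalised CPM (log2 fold change 0.56, SE 0.18, adjusted p = 0.0285). In TG_PS19 against PS19 0 of the 15 passed by edgeR or DESeq2, and 1 had an unadjusted p under 0.05. There edgeR called 9.31% of all genes. DESeq2 called none of the 15 in PS19 against WT, where Trem2 had a log2 fold change of 0.00. Among 17 transcription factors tested, 5 rose and 1 fell in PS19 against WT by edgeR, beside 9.19% of all genes called, and 1 passed by DESeq2. Mitf, a regulator of lysosomal genes including Gpnmb, was 398, 864, 986 and 490 normalised CPM (1.22, SE 0.16, adjusted p = 1.37e-11), and Hif1a was 81.5, 152, 177 and 71.2 (1.02, SE 0.22). In TG_PS19 against PS19 1 rose and 5 fell by edgeR, beside 9.31% of all genes called, and 1 passed by DESeq2. Mitf fell by 0.92 (SE 0.16) and Hif1a fell by 1.21 (SE 0.25).

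Partners and substrates of the 8 proteins were mixed, with 3 of 27 up and 3 down in PS19 against WT by edgeR, and 0 called by DESeq2. Of all genes edgeR called 4.74% higher and 4.44% lower there. Before adjustment 14 reached 0.05. Ptgfrn, a partner of CD9, was 9.17, 63.3, 53.9 and 2.97 normalised CPM (2.65, SE 0.44). Of 4 lysosomal proteases on the list, Ctsc rose by 0.76 (SE 0.17) and Ctsl by 0.63 (SE 0.18), while Ctsh (0.26, edgeR adjusted p = 0.433) and Lgmn (-0.32, adjusted p = 0.205) did not pass. Igfbp4, which binds IGF1, was 23.4, 4.75, 2.57 and 22.3 (-2.67, SE 0.77, adjusted p = 0.00986), and the tetraspanin Cd81 fell by 0.49 (SE 0.15). In TG_PS19 against PS19 3 rose and 7 fell by edgeR, beside 9.31% of all genes called, and DESeq2 called 0 of the 27, while 12 reached 0.05 before adjustment. Ptgfrn fell by 4.22 (SE 0.63), and Igfbp4 rose by 2.59 (SE 0.83).

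The choice of the 8 genes used their spread over cell classes. Their differences between genotypes within the other classes were tested, in libraries whose results were already known. Of 88 pairs of a gene and one of 11 other classes, 23 had enough counts, and 2 passed by edgeR between PS19 and WT, where 2.47% of all genes over these classes did. Between TG_PS19 and PS19 4 passed (4.63% of all genes), and between TG_PS19 and WT 0 (2.17%), where DESeq2 also called 0 and 4 reached 0.05 before adjustment. Over the 3 comparisons 6 of 69 passed (3.09% of all genes) by edgeR and 3 by DESeq2, and 19 reached 0.05 before adjustment. The 6 calls were Gpnmb and Cd9 in astrocytes in both comparisons with PS19, and Cd9 in oligodendrocytes and in oligodendrocyte precursors (OPC) in TG_PS19 against PS19.

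Gpnmb in astrocytes was read 36 times in WT, 46 and 110 times in PS19 and 27 times in TG_PS19, or 4.46, 19.0, 32.8 and 5.10 CPM. Nuclei with a UMI were 0.999%, 4.05%, 4.86% and 1.04%. Both PS19 libraries lay above the other 2. The log2 fold change was 2.54 in PS19 against WT (SE 0.30, edgeR adjusted p = 1.58e-14, 5.71% of astrocyte genes called) and -2.20 in TG_PS19 against PS19 (SE 0.32, adjusted p = 1.07e-09, 9.25% called). A single astrocyte of the second PS19 library held 52 of its 110 UMIs, with 8602 UMIs in all, 53 of astrocyte markers and 0 of microglial markers. Without the astrocyte richest in Gpnmb in each library the levels were 3.97, 15.7, 17.4 and 4.16 CPM and the changes 2.03 (adjusted p = 1.86e-07) and -1.82 (adjusted p = 3.31e-05).

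Gpnmb differed between clusters of astrocytes. In cluster 10, led by Myoc, Gfap and Aqp4, it was 32.2 CPM in WT, 44.1 and 90.0 in PS19 and 36.5 in TG_PS19, and in cluster 0, led by Rorb, 2.43, 3.42, 0.99 and 3.35. In the smaller cluster 18, led by Adgrv1, it was 0, 29.6, 27.8 and 3.98 CPM, on 0, 3, 5 and 1 UMIs. Cluster 10 was assigned 8.21%, 32.9%, 30.9% and 5.74% of the astrocytes, a share that moves with the class value. Within cluster 10 the change was 1.10 in PS19 against WT (edgeR adjusted p = 0.0477) and -0.85 in TG_PS19 against PS19 (adjusted p = 0.396). The first call was lost without the astrocyte richest in Gpnmb in each library, where the cluster's levels were 25.6, 35.1, 44.9 and 18.6 CPM and the change was 0.67 (edgeR adjusted p = 0.513). With cluster 10 left out of the astrocytes the changes were 0.84 (adjusted p = 0.824) and -0.13 (adjusted p = 0.965). Microglial markers were no higher in PS19 astrocytes with Gpnmb, 137 and 131 CPM, than in those without, 193 and 174, and Clec7a had 1 and 3 UMIs in PS19 astrocytes. Astrocyte markers were lower in the astrocytes with Gpnmb, 13589 against 20636 CPM and 10340 against 21809, and their mean doublet scores were higher, 0.266 against 0.195 and 0.339 against 0.213. The part of mixed nuclei in the Gpnmb values was not tested.

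**Figure D5:**
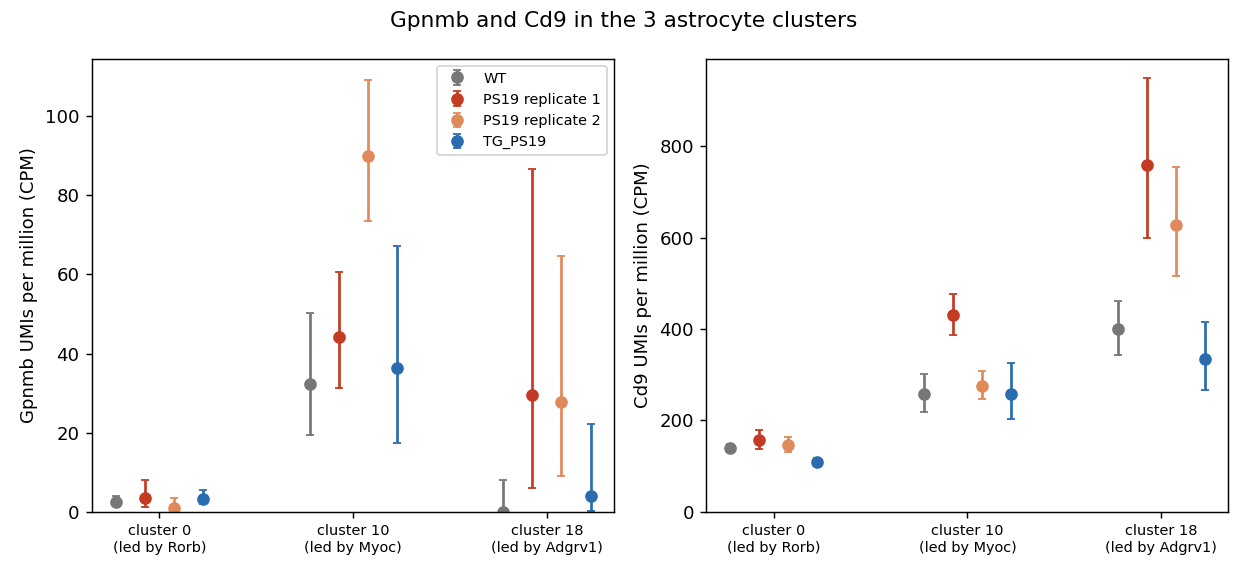
Level in CPM (linear axes) of Gpnmb (left) and Cd9 (right) in 3 astrocyte clusters, by library, with exact 95% Poisson intervals. Gpnmb is near 0 in cluster 0 and 32.2 to 90.0 CPM in cluster 10, where PS19 replicate 2 holds the nucleus with 52 UMIs.

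Cd9 in astrocytes was 163 CPM in WT, 280 and 216 in PS19 and 127 in TG_PS19. It rose in PS19 against WT (0.57, SE 0.13, edgeR adjusted p = 9.79e-04) and fell in TG_PS19 against PS19 by 0.78 (SE 0.14, adjusted p = 1.89e-06). Without cluster 10 the second change was -0.55 (adjusted p = 0.0131) and the first 0.32 (adjusted p = 0.410). Oligodendrocytes held 271, 369, 306 and 217 CPM, falling by 0.58 in TG_PS19 against PS19 (SE 0.13, edgeR adjusted p = 0.00205, 7.86% of genes called), and OPC held 352, 523, 378 and 246, falling by 0.78 (SE 0.17, adjusted p = 4.43e-04, 3.53% called). In PS19 against WT neither passed (0.36, adjusted p = 0.085, and 0.38, adjusted p = 0.399, by edgeR). The OPC level of the second PS19 library lay nearer to WT than to the first PS19 library.

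Igf1 and Spp1 had their largest pools where no test passed. Igf1 in inhibitory neurons was 82.8 CPM in WT, 106 and 136 in PS19 and 67.4 in TG_PS19, and in 25.3%, 43.9%, 50.6% and 23.8% of nuclei. The changes of 0.58 and -0.79 had adjusted p-values of 0.857 and 0.250 by edgeR. It was concentrated in the inhibitory cluster led by Dlx6os1 and Kcnmb2, at 107, 132, 158 and 111 CPM. Fibroblasts held Igf1 at 56.2, 58.1, 70.8 and 49.8 CPM and Spp1 at 93.7, 130, 114 and 108. Neither passed, and Spp1 was highest in the fibroblast cluster led by Lama1, at 504, 297, 345 and 395 CPM, where WT was the highest library.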

How the data were processed

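The deposited values are whole UMI counts per gene and nucleus in 4 matrices, which the authors made with Cell Ranger 7.1.0 on GRCm38, per the submitters' processing notes; whether counting used strand is not given in the sources used here. The deposited counts were 48670533 (WT), 20064025 and 26198644 (PS19) and 38971002 (TG_PS19) UMIs. The 8 genes and all lists were chosen with earlier results of these data known.

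Nuclei with at least 500 UMIs, 300 genes and at most 5% mitochondrial UMIs were kept. Doublets were scored against simulated pairs, and the top 0.8% per 1000 barcodes of each library was left out (1303, 172, 194 and 756 nuclei). Leiden clustering (leidenalg 0.10.2, scikit-learn 1.9.0, Python 3.11.15) used 2000 variable genes without the 8, 30 components and 15 neighbours, giving 36 clusters, named where at least 4 markers of a class were raised; clusters with leading genes of another class stayed unnamed.

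Counts were summed per library and class and tested with edgeR 4.0.16 in R 4.3.3 (TMM, quasi-likelihood, Benjamini-Hochberg within a class at 0.05). The only residual degree of freedom comes from the PS19 pair. In microglia, astrocytes and OPC the prior degrees of freedom were infinite. The spread there was a trend over all genes, and a gene's own spread had no weight. Nuclei are not replicates. Scripts were tested on simulated data. Alternatives were DESeq2 1.42.0, other scalings and filters, doublets kept, other clusterings, TG_PS19 nuclei called male, thinning, and each PS19 library left out. Named were the 8 genes, up to 6 called genes of each list per comparison by size, and 10 genes by each measure of likeness; Trem2, Apoe, Ctsb, P2ry12 and Siglech were picked after their values were seen. Cd9 overlaps the antisense gene Gm28809 (73 UMIs in microglia).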

Additional observations from a re-analysis of the deposited data

How the results depend on the processing

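No paired analysis was possible because WT and TG_PS19 have 1 library each and the labels give no shared replicate numbers. Of 134 alternative values of results that answer a comparison, 110 stayed near the main count or within the spread of the main value. These are counts, shares and levels, which have no sign to reverse. With DESeq2, genes called in microglia were 72 (PS19 against WT), 93 (TG_PS19 against PS19) and 2 (TG_PS19 against WT), against 972, 985 and 96 by edgeR; disease-associated genes called were 7 and 10, homeostatic genes 3 and 3, and the 8 genes outside microglia 3. With doublets kept, TG_PS19 against PS19 gave 620 genes and TG_PS19 against WT 4, homeostatic calls were 5 and 4, the WT share of member UMIs in microglia was 7.77%, and the summed levels were 310 CPM in WT and 299.6 in TG_PS19. With TG_PS19 nuclei called male alone, the 2 comparisons gave 382 and 10 genes, 9 homeostatic genes rose, and 0% of TG_PS19 microglia held at least 2 of the 8 genes.

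Shares of microglia with at least 2 genes were 13.3% (PS19 mean) and 0.538% (WT) after thinning, and 13.9%, 0.340% and 0.243% (PS19, WT and TG_PS19) without Cd9, the last setting chosen after seeing the data. Leaving out either PS19 library leaves no residual degree of freedom, so no counts were made; the share then ranged from 28.9 to 34.2%, the share of UMIs in microglia from 15.5 to 16.9% and the summed level from 981 to 1255 CPM, and the called genes of the 5 lists and the 8 members in microglia kept their sign. Of 55 single-gene results none reversed; DESeq2 kept 18 of 49 calls, keeping doublets 41 and male TG_PS19 nuclei 47. The causes were not tested. Genes under 3 counts in a library are limited by depth.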

Other observations

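A small cluster of 62 nuclei led by Mrc1, Cd74 and F13a1 was left unnamed because its leading genes are those of border macrophages while 11 of 12 microglial markers were raised. It held Igf1 at 170 CPM (19 UMIs), with 151, 252, 224 and 111 CPM in WT, the 2 PS19 libraries and TG_PS19. Clec7a stood at 71.4 CPM (8 UMIs), with 64.8, 83.9, 74.8 and 73.9 CPM in the same order, and Itgax at 44.6 CPM (5 UMIs). Gpnmb and Cst7 had no UMI there. In WT and TG_PS19, where microglia held Clec7a at 4.01 and 4.13 CPM, the level in this cluster was higher, on 1 to 3 UMIs per library.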
